A study of Mus musculus with 2 samples.

Results

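Very wide ELF3 regions are stretches of 4000 bp or more over which ELF3 CUT&RUN signal was listed as 1 region. They were taken from the ELF3 list of chromosomes 1 to 19, and 3 windows holding histone gene clusters were left out (chromosome 13 at 21850 to 22280 kb and 23560 to 24000 kb, chromosome 3 at 96080 to 96520 kb). Members were thus chosen by the deposited ELF3 width. By this rule 391 regions were found among 66702 ELF3 regions on these chromosomes and 68319 in all. Width and every other ELF3 value are therefore given as a description, whereas the NFKB2 signal was not used in the choice. The 391 regions made up 0.586% of the ELF3 regions on chromosomes 1 to 19 and 4.62% of the length those regions covered, 2.13 Mb in all.

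ELF3 is an epithelium-restricted transcription factor of the ETS family, whose members bind DNA through a core of GGAA, and it is induced by inflammatory cytokines in several epithelia. NFKB2 encodes p100, which holds NF-κB dimers in the cytoplasm until it is processed to p52, the DNA-binding subunit that acts with RELB in the non-canonical pathway. TNFα activates NF-κB. Broad stretches of factor binding are known from strong enhancers, from dense groups of promoters and from highly transcribed genes.

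CUT&RUN uses an antibody to direct a nuclease to a protein on chromatin, so that the DNA around it is cut out and sequenced. It was applied to cultured primary tubular epithelial cells from the kidneys of wild-type mice. Both libraries, 1 for ELF3 and 1 for NFKB2, came from cells given TNFα and IFNγ and carry the same batch label. The number, age and sex of the mice and the dose and time of the cytokines are not stated in the labels, and an untreated library was not analysed here. The study's design text names IgG as a control. An IgG list was not analysed here, so the background is the local one that the authors' peak caller gave for each region.

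Both libraries were of similar depth. Recovered from the peak scores, it was 10.1 fragments per kb for ELF3 and 10.6 per kb for NFKB2, relative to the caller's genome size, a depth ratio of 1.04. Each antibody had a single library without replicate, no difference between the antibodies was tested, and the 95% intervals cover counting error only. The fewest fragments at a listed summit were 6 for ELF3 and 8 for NFKB2 where the background was at its lowest level, called the floor, so a stretch without an NFKB2 region may hold weaker signal. Neighbouring regions lay at least 1001 bp apart in the ELF3 list and 1006 bp apart in the NFKB2 list. A wide region is therefore continuous signal after shorter gaps had been joined, with 1 summit listed whatever its width. Coordinates are printed as deposited, 1-based, with sequence names of GRCm39. No annotation of that build was used here, so no region was assigned to a gene and the labelled cell type was not checked against marker genes.

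The regions were narrowly spread above the limit, apart from a long tail. Their median width was 4929 bp, with quartiles of 4363 and 5840 bp, and 209 of them were under 5000 bp. Another 138 measured 5000 to under 7000 bp, 35 measured 7000 to under 10000 bp and 9 measured 10000 bp or more. The widest reached 30848 bp, more than 2 times the second, 12543 bp. Their summits were of moderate height: the median was 50 ELF3 fragments, with quartiles of 33 and 65.5, against a median of 22 over all ELF3 regions on chromosomes 1 to 19. In 18 of the regions the summit held fewer than 20 fragments. The local background was at the floor in 250 of the 391 regions (63.9%), against 70.3% of all ELF3 regions on these chromosomes.

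NFKB2 was listed on most of the very wide ELF3 regions but covered a minor part of their length. An NFKB2 region overlapped 330 of the 391 by 1 bp or more (84.4%, exact binomial 95% interval 80.4 to 87.9), while 19.9% of all ELF3 regions on chromosomes 1 to 19 were overlapped. With the NFKB2 list limited to −log10 q of 10 or more, 45.0% of the 391 were overlapped, no longer most of them, against 7.87% of all. The median cover was 13.9% with NFKB2 regions of −log10 q of 5 or more and 0% with those of 10 or more. A longer region can be touched more easily, so the share of length covered was taken as well. With the full NFKB2 list, the cover of a region had a median of 21.1% of its length and quartiles of 6.46 and 43.4%, and it ran from 0 to 99.9%. Cover of 50% or more was found in 72 regions (18.4%, 14.7 to 22.6), against 8.95% of all ELF3 regions. Added up, NFKB2 covered 628 kb of the 2.13 Mb, or 29.5%.

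**Figure D1:**
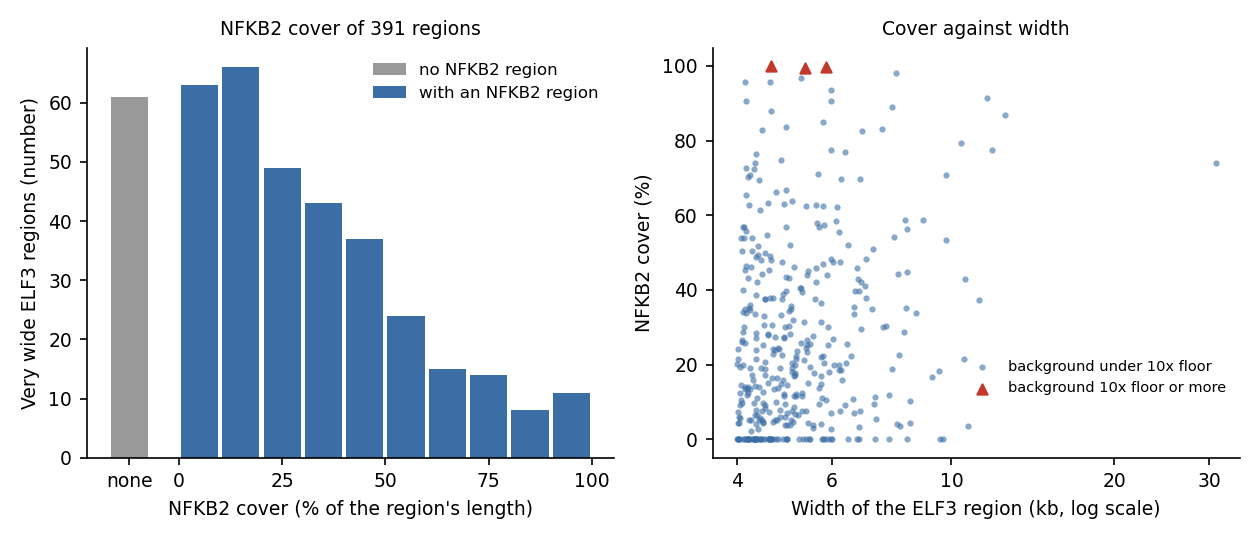
The left panel counts the 391 regions by NFKB2 cover in steps of 10% of the region's length, with the 61 regions without NFKB2 as a grey bar; the right panel plots cover against width in kb on a log scale, with a point for each region. Cover spreads over the whole range near the width limit, and the 3 triangles near 100% are regions with a raised local background.

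Cover of the summed length was higher in wider classes. NFKB2 covered 10.4% of the summed length of ELF3 regions under 1000 bp, 15.4% at 1000 to under 2000 bp and 20.1% at 2000 to under 4000 bp. Within the very wide regions it covered 24.8% at 4000 to under 5000 bp, 29.6% at 5000 to under 7000 bp, 31.2% at 7000 to under 10000 bp and 60.8% of the 9 regions of 10000 bp or more. The number of NFKB2 regions per kb of ELF3 length went the other way, from 0.339 under 1000 bp to 0.235 in the very wide regions. An overlap of 1 bp counts as 1 region here, and NFKB2 regions lay at least 1006 bp apart. Both bear on this number, and their part in the fall was not tested. The share of regions with any NFKB2 rose from 13.7% under 1000 bp to 84.4% in the very wide regions. Among overlapped regions alone cover did not rise in this way up to 7000 bp. Its median was 55.6% under 1000 bp, 31.3% at 1000 to under 2000 bp, 25.8% at 2000 to under 4000 bp and 26.7% in the 330 very wide regions. Within these 330 it was 25.8% at 4000 to under 5000 bp and 25.5% at 5000 to under 7000 bp. In the wider classes it was higher, 32.1% at 7000 to under 10000 bp and 74.0% in the 9 regions of 10000 bp or more. Cover of 50% or more was found in 21.8% of those 330, against 44.9% of all overlapped ELF3 regions on chromosomes 1 to 19. The 28 ELF3 regions of 4000 bp or more inside the histone windows had an NFKB2 cover of 4.31% of their length, with 16 of 28 overlapped (57.1%, 37.2 to 75.5) and none covered by 50% or more (0 of 28, upper limit 12.3%). Their ELF3 summits were higher, with a median of 172 fragments.

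The 10 widest regions showed the range of patterns. The widest, on chromosome 19 at 5871088 to 5901935, had 58 ELF3 fragments at its summit and 48 NFKB2 fragments, and 5 NFKB2 regions covered 74.0% of it. One of these, at 5879065 to 5897146, was 18082 bp wide by itself, the widest NFKB2 region on chromosomes 1 to 19. A neighbour on the same chromosome, 5843191 to 5854813, had 42 ELF3 and 29 NFKB2 fragments and a cover of 91.5%, from a single NFKB2 region of 10635 bp. Together they spanned 58.7 kb, of which ELF3 regions covered 85.2% and NFKB2 regions 65.8%. Both factors were thus listed over most of this stretch.

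Single long NFKB2 regions also filled most of 3 others of the 10. On chromosome 11 at 86466495 to 86479037, ELF3 had 113 fragments and NFKB2 60, and 1 NFKB2 region of 10902 bp gave a cover of 86.9%. On chromosome 14 at 20886069 to 20897944 the fragments were 51 and 29 and the cover 77.6%. On chromosome 5 at 104580706 to 104591130 they were 67 and 56 and the cover 79.3%. In this last region the ELF3 summit lay 302 bp from the start, outside the NFKB2 region, whose own summit was 8643 bp away. High cover thus did not require summits at the same place.

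In the remaining 5 of the 10 widest NFKB2 was broken into pieces or nearly absent. Chromosome 16 at 55635465 to 55645246 held 44 ELF3 and 18 NFKB2 fragments, with 2 NFKB2 regions over 70.9% of it. Chromosome 5 at 142798951 to 142809522 had 59 and 26 fragments and 2 NFKB2 regions over 42.9%. Chromosome 11 at 96187948 to 96199192 had 21 and 20 fragments and 3 NFKB2 regions over 37.2%; the NFKB2 summit with those 20 fragments lay outside the ELF3 region, in an NFKB2 region that crosses its start. Cover of these 3 was intermediate, 37.2 to 70.9%. Chromosome 19 at 44735971 to 44746503 had 30 and 15 fragments, with 4 NFKB2 regions over 21.4%. The widest of the 4 measured 2724 bp and crossed the start of the ELF3 region. Chromosome 13 at 111937363 to 111948102 had 32 and 17 fragments, with 1 NFKB2 region of 394 bp over 3.67%.

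**Figure D2:**
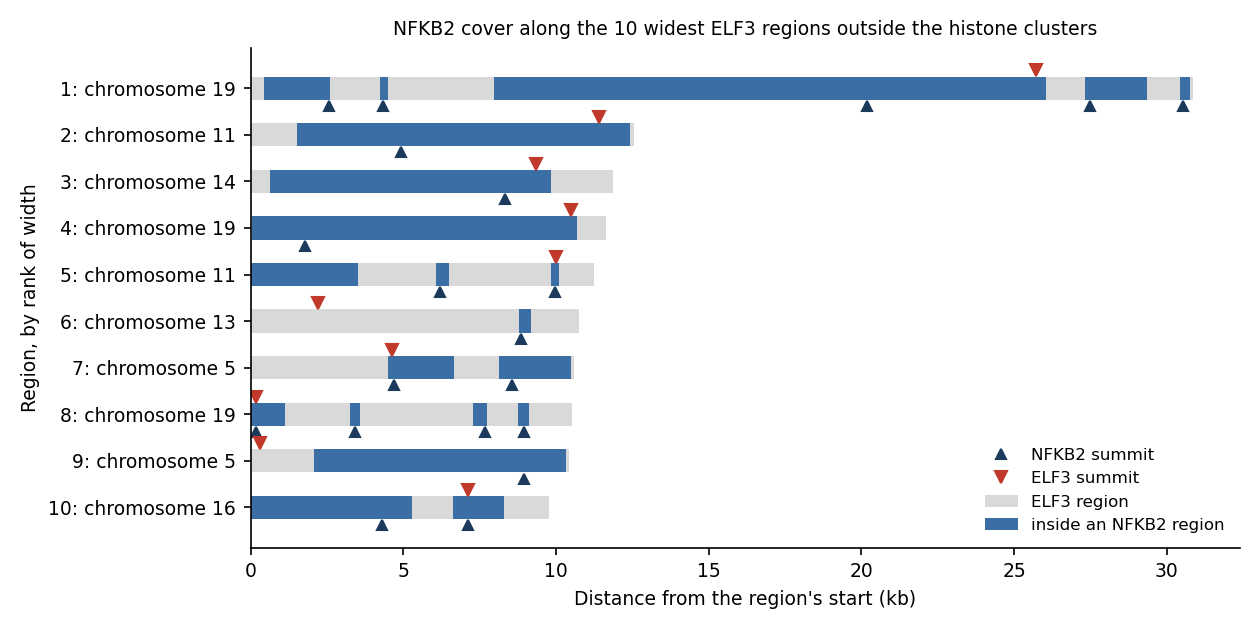
Each grey bar is 1 of the 10 widest ELF3 regions drawn to scale from its start in kb, blue stretches lie inside NFKB2 regions, and triangles mark the ELF3 summit (above) and NFKB2 summits (below; a summit outside the ELF3 region is not drawn). Ranks 1 to 4 and 9 are blue over 73.97% or more of their length, while rank 6 has 1 blue stretch of 394 bp.

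Most NFKB2 regions in contact with very wide ELF3 regions lay inside them. Of 498 such NFKB2 regions, 458 lay wholly inside (92.0%). This share was not taken for other widths of ELF3 region. The 498 had a median width of 761 bp, against 329 bp over all 14060 NFKB2 regions on chromosomes 1 to 19. The very wide ELF3 regions had a median of 4929 bp, so NFKB2 regions of such a size would mostly fit inside. The 498 made up 3.54% of the 14060 NFKB2 regions. Their part inside the very wide ELF3 regions made up 8.77% of the length covered by NFKB2. Of 34 NFKB2 regions that were themselves 4000 bp or wider, 27 touched a very wide ELF3 region. These 27 included regions of 4633, 5836 and 5323 bp with a background of 132, 89.8 and 69.5 times the floor. Of the other 7, 4 lay between 3000376 and 3038223 on chromosome 9, where the background was 1120 to 4828 times the floor. A single NFKB2 region was found in 196 of the 391 ELF3 regions, 2 in 101, 3 in 30, 4 in 2 and 5 in 1.

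NFKB2 cover was highest at the ELF3 summit. The summit lay inside an NFKB2 region in 280 of the 391 (71.6%, 66.9 to 76.0), against 18.2% of all ELF3 regions on chromosomes 1 to 19. Moving outward within the region, NFKB2 covered 43.4% of the positions 250 bp from the summit, 25% at 1000 bp and 22.9% at 2000 bp. In the ELF3 regions of 2000 to under 4000 bp the same shares were 53.1% at the summit, 29.2% at 250 bp, 12.6% at 1000 bp and 10.3% at 2000 bp. Cover thus fell over the first 1000 bp in both classes and was higher at each of these distances in the wider one. The farther positions come only from regions that reach that far.

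The highest NFKB2 summit often lay away from the ELF3 summit. Where NFKB2 was present the distance had a median of 88.5 bp, with quartiles of 22 and 1308 bp. It was 100 bp or less in 171 of 330 regions (51.8%) and over 1000 bp in 98 (29.7%). In regions of 2000 to under 4000 bp, which leave less room, 64.8% were within 100 bp and 13.6% beyond 1000 bp. The ELF3 summit itself was in the outer 10% of the length at either end in 101 of the 391 regions (25.8%). This share was 27.5% at 2000 to under 4000 bp and 29.5% at 1000 to under 2000 bp, but 7.41% under 1000 bp. A summit near an end was thus not particular to the very wide regions.

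Within classes of ELF3 summit height NFKB2 was present more often at the summit of wider regions. Among regions at the floor with 30 to 49 ELF3 fragments, the summit lay in an NFKB2 region in 24.6% of 6625 regions under 1000 bp, 42.0% of 2015 at 1000 to under 2000 bp, 54.0% of 611 at 2000 to under 4000 bp and 63.9% of 83 very wide ones (52.6 to 74.1). With 50 to 69 fragments the shares were 44.0%, 59.4%, 69.1% and 80.2% (69.9 to 88.3, 81 very wide regions). The classes of ELF3 fragments are broad, and NFKB2 regions in contact with very wide ELF3 regions were themselves wider than others, as given above; the part of either in these shares was not tested. The intervals of the very wide class and of the class of 2000 to under 4000 bp overlapped in every class of ELF3 fragments. With 100 or more fragments the order did not hold, since 8 of 12 very wide regions (66.7%, 34.9 to 90.1) had NFKB2 at the summit against 80.3% of 61 at 2000 to under 4000 bp. The other 4 of those 12 all lay within 2 Mb of the histone windows, and all 8 elsewhere had it.

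**Figure D3:**
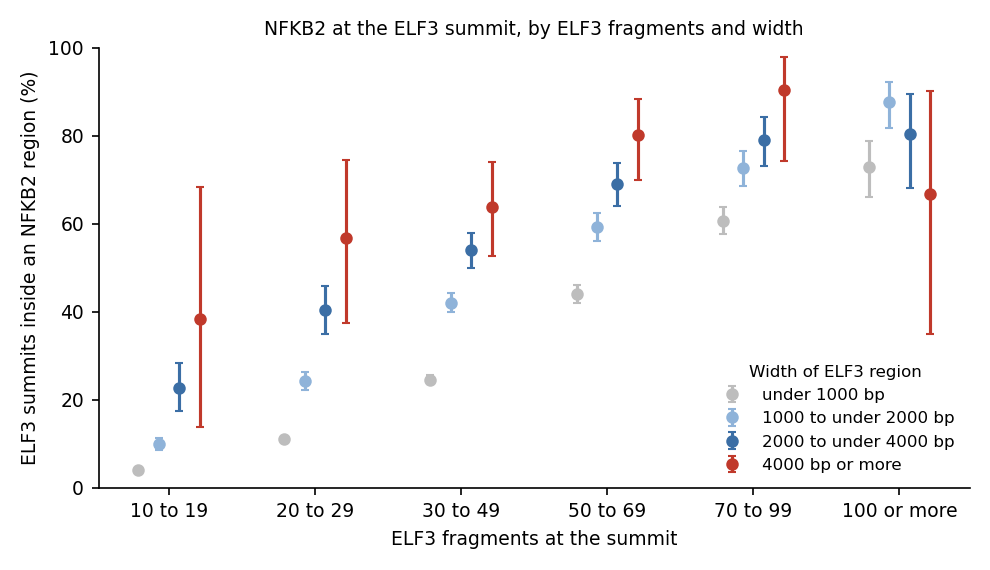
Points give the percentage of ELF3 summits that lie inside an NFKB2 region, by ELF3 fragments at the summit (x axis) and width of the ELF3 region (colour), for regions at the floor outside the histone windows; bars are exact binomial 95% intervals. At 30 to 49 fragments the points rise from 24.6% under 1000 bp to 63.9% in regions of 4000 bp or more.

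NFKB2 had fewer fragments than ELF3 in nearly all of the 330 very wide regions with listed NFKB2, as in ELF3 regions with NFKB2 at large. The ELF3 count belongs to the readout by which the regions were chosen, so the ratio of the 2 is a description. In the 330 with NFKB2, the highest NFKB2 summit had a median of 20 fragments, with quartiles of 15 and 29. The depth-adjusted ratio of NFKB2 to ELF3 had a median of 0.400, with quartiles of 0.295 and 0.547, and was below 0.5 in 229 regions (69.4%). Over all ELF3 regions with NFKB2 on chromosomes 1 to 19 the median was 0.393, and 67.6% were below 0.5. Among regions with a listed NFKB2 region the very wide ones were thus close to the others in this ratio, and their difference has no replicate check. Such a region was listed for 84.4% of the very wide regions but 19.9% of all, and weaker NFKB2 is left out of both medians. The likeness therefore cannot be extended to regions without listed NFKB2. The 16 regions with NFKB2 inside the histone windows had a median ratio of 0.0434.

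The NFKB2 cover went with NFKB2 fragments, whereas median ELF3 fragments moved little between classes of cover above 0. Regions with a cover above 0 and up to 10% had a median of 15 NFKB2 fragments, those at 25 to 50% had 22 and those above 75% had 33. The median ELF3 fragments in the same classes were 53.5, 51 and 48. In the 61 regions without NFKB2 the median was 37 ELF3 fragments, with quartiles of 29 and 56, which overlap the quartiles of 35 and 67 in the 330 with NFKB2. Cover and NFKB2 fragments are readouts of the same library and are not independent of each other.

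After depth adjustment NFKB2 exceeded ELF3 in 13 of the 330 regions with NFKB2 (3.94%), against 6.19% of all ELF3 regions with NFKB2 on chromosomes 1 to 19. Both shares leave out the regions without listed NFKB2. The region on chromosome 7 at 49170040 to 49176024 held 60 NFKB2 fragments (exact Poisson 95% interval 45.8 to 77.2) beside 24 of ELF3 (15.4 to 35.7), and its cover was 90.6%. On chromosome 8 at 85700967 to 85708863 the counts were 75 (59.0 to 94.0) and 50 (37.1 to 65.9), with a cover of 98.2%, the highest of any region with a background under 10 times the floor. Both intervals were apart in the first and overlapped in the second. The region on chromosome 1 at 66854045 to 66858387 held 53 NFKB2 fragments beside 28 of ELF3, with a cover of 76.4%. Cover was 50% or more in 10 of the 13, and ELF3 had 21 to 57 fragments in them. The highest ratio of the 13, on chromosome 9 at 123722129 to 123727510, came from an NFKB2 summit outside the ELF3 region. The regions on chromosomes 7 and 1 were chosen after their values were seen.

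**Figure D4:**
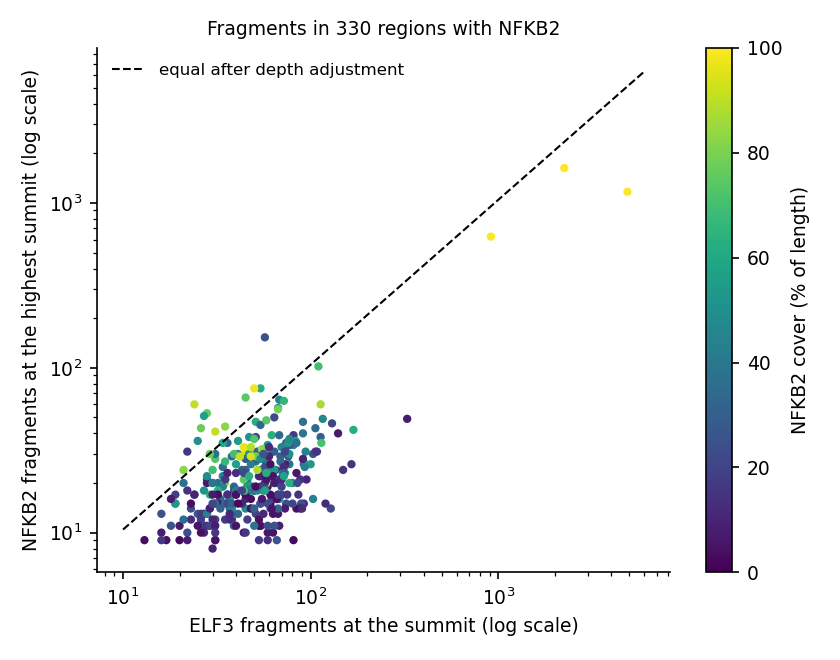
Each point is 1 of the 330 very wide ELF3 regions with NFKB2, with ELF3 fragments on the x axis and fragments of the highest NFKB2 summit on the y axis (both log scales), coloured by NFKB2 cover; the dashed line marks equal signal after depth adjustment. Only 13 points lie above the line, and the 3 points at the upper right are the regions with a raised background.

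Among the 391, the largest counts of both libraries came from 3 regions with a raised local background. They lay on chromosome 1 at 24650622 to 24655259 with 2249 ELF3 and 1628 NFKB2 fragments, on chromosome 17 at 40153880 to 40159729 with 4886 and 1169, and on chromosome 9 at 124254253 to 124259602 with 914 and 625. Their ELF3 background was 132, 89.3 and 71.4 times the floor, and the NFKB2 background was 132, 89.8 and 69.5 times its own floor. Cover was 99.5 to 99.9% in all 3, the highest of the 391. The NFKB2 counts of the 3 followed the order of their background. The ELF3 counts did not, since the largest, 4886, was not at the highest background. In the order given, the ELF3 fold over background was 13.8, 44.3 and 10.4. The part of the background in these counts was not tested. Of the other regions rich in NFKB2 fragments, chromosome 9 at 123722129 to 123727510 had 57 ELF3 fragments and a cover of 24.5%. Its 153 NFKB2 fragments were at a summit outside the ELF3 region, in an NFKB2 region that crosses its start. The NFKB2 background at that summit was 29.0 times the floor, and the NFKB2 summit inside the ELF3 region held 16 fragments. Chromosome 9 at 56978513 to 56984763 had 102 and 110 fragments, summits 10 bp apart and a cover of 69.7%, with backgrounds of 2.29 and 2.43 times the floor.

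No NFKB2 region was listed in 61 of the very wide regions (15.6%). The widest was on chromosome 13 at 21349819 to 21359465, with 87 ELF3 fragments. It was followed by chromosome 3 at 30557885 to 30567414 with 21, chromosome 7 at 70004644 to 70012923 with 47, chromosome 2 at 74523858 to 74531510 with 14 and chromosome 17 at 41184345 to 41191577 with 42 ELF3 fragments. Their ELF3 summits ran from among the lowest of the 391 to above the upper quartile. At the median ratio of 0.400 of the regions with NFKB2, the region on chromosome 2 would be expected to hold 5.85 NFKB2 fragments. This is under the 8 of the weakest listed region at the floor, so NFKB2 at that ratio could go unlisted there at this depth. The other 4 would hold 8.77 to 36.3. Of all 61, 53 would reach 8 fragments or more. That limit holds at the floor, where the ELF3 background of 43 of the 61 lay, and a raised background asks for more fragments. The ratio also comes only from regions with a listed NFKB2 region. Whether NFKB2 at that ratio would have been listed in all 53 was therefore not settled.

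The very wide regions of chromosome 13 combined the highest median ELF3 summit of the autosomes with low NFKB2 cover. Its 26 regions had a median of 82 ELF3 fragments, against 48 in the 365 on other chromosomes, and a median NFKB2 cover of 6.42% against 22.5%. NFKB2 was listed in 17 of 26 (65.4%), the lowest share of the 19 autosomes. Of these 26, 6 lay within 2 Mb of the histone windows, with 83 to 118 ELF3 fragments, and none of the 6 had an NFKB2 region. The other 20 had a median of 72.5 ELF3 fragments and a median cover of 13.6%, and 17 of them had NFKB2. The low cover of the chromosome was therefore in part that of the 6, and the distance of 2 Mb was set after the values were seen. The background of the 6 was at the floor. On chromosome 3 there were 3 regions within 2 Mb of the histone window, with 51 to 59 ELF3 fragments, and NFKB2 covered 3.72 to 40.02% of each.

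**Figure D5:**
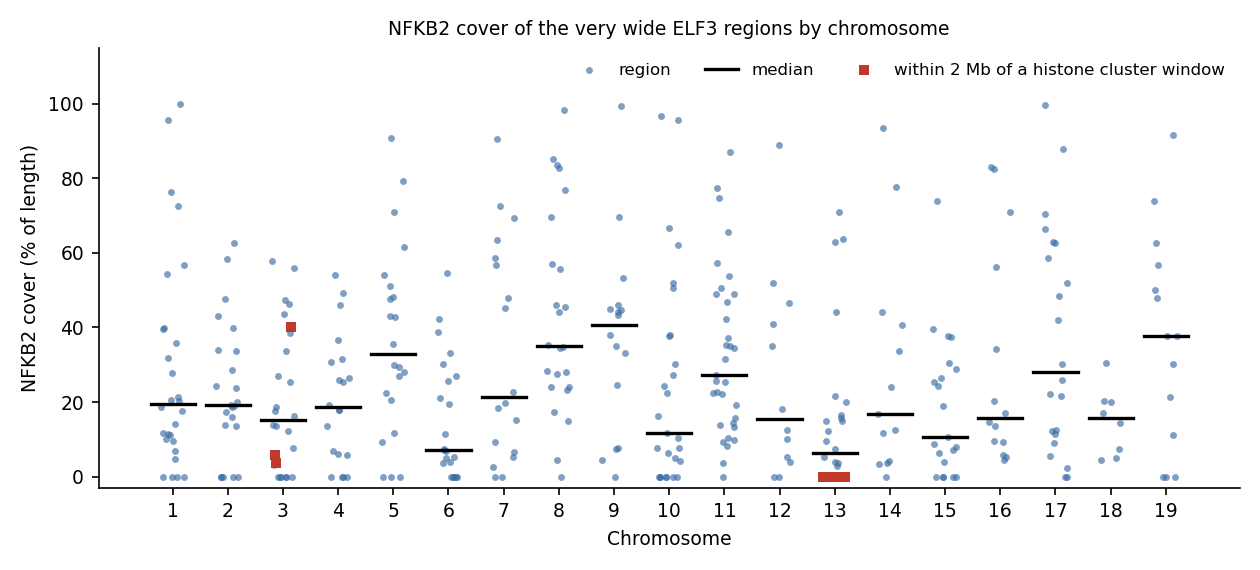
Points are the 391 regions by chromosome (x axis) and NFKB2 cover in percent of length (y axis), with black lines at each chromosome's median; red squares lie within 2 Mb of a histone window. All 6 squares on chromosome 13 are at 0, and the highest median is 40.6% on chromosome 9.

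The other chromosomes carried 8 to 33 of the regions each. Chromosome 11 had the most, 33, with NFKB2 in 32 of them, a median cover of 27.3% and a median of 35 ELF3 fragments, the lowest of any autosome. Chromosome 18 had the fewest, 8, all with NFKB2 and with a median cover of 15.7%. Median cover was 40.6% on chromosome 9, 37.7% on chromosome 19 and 35.0% on chromosome 8, and 7.19% on chromosome 6. With 8 to 33 regions a chromosome and a cover of 0 to over 50% within most of them, these medians are descriptions and the order of the chromosomes was not tested.

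Some of the regions lay side by side. Joined over gaps of up to 20 kb, 54 of the 391 fell into 23 runs, 20 of 2 regions and 3 of 3 or more, and the other 337 stood alone. The longest run was on chromosome 11 at 96160139 to 96237530, with 7 very wide regions in 77.4 kb. ELF3 regions covered 69.3% of it and NFKB2 regions 24.9%, in 13 pieces. Its summits were low in both libraries, with 16 to 30 ELF3 and 12 to 20 NFKB2 fragments, and all 7 had NFKB2. A run on chromosome 13 at 21342333 to 21385073 was the opposite: 4 regions with 83 to 118 ELF3 fragments, 59.4% of its length in ELF3 regions, and no NFKB2 region. A run of 3 on chromosome 9 at 102592055 to 102615986 had 34 to 52 ELF3 and 18 to 22 NFKB2 fragments, and its 3 regions had like covers of 43.3 to 45.9%. The gap that joins a run was set after the values were seen.

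Regions with several NFKB2 regions each also differed in how much these covered. Chromosome 12 at 76577589 to 76584496 held 4, with 48 ELF3 and 26 NFKB2 fragments and a cover of 41.0%. Chromosome 13 at 51998825 to 52008011 held 3, with 68 and 21 fragments and a cover of 16.7%. Median cover was 20.3% in the 196 regions with a single NFKB2 region, 33.6% in the 101 with 2 and 33.8% in the 30 with 3. Their ranges overlapped widely, with 2.30 to 99.9% for a single NFKB2 region and 12.2 to 58.6% for 3.

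The surroundings of the very wide regions were richer in both factors than those of the class below. In the 10 kb on either side NFKB2 covered 2.97% and ELF3 11.6% of the sequence, and 253 of 782 flanks held an NFKB2 region (32.4%). For ELF3 regions of 2000 to under 4000 bp the values were 1.44%, 6.74% and 20.3%. Flanks of neighbouring regions can overlap each other and hold further very wide regions.

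The regions nearest the width limit are given as a description. Just inside it were chromosome 16 at 26219235 to 26223234 (4000 bp, 73 ELF3 and 31 NFKB2 fragments, cover 20.3%), chromosome 13 at 20575992 to 20580004 (4013 bp, 108 ELF3 fragments, no NFKB2) and chromosome 9 at 31028717 to 31032735 (4019 bp, 32 and 15, cover 4.35%). Just outside it were chromosome 16 at 86141444 to 86145442 (1 bp under the limit, 77 and 19, cover 8.15%), chromosome 8 at 127552763 to 127556759 (3997 bp, 78 and 22, cover 14.1%) and chromosome 2 at 90375639 to 90379633 (3995 bp, 74 and 27, cover 7.86%).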

How the data were processed

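The peak lists came from 1 ELF3 and 1 NFKB2 CUT&RUN library, each its own group by the labels. Per the submitters' processing notes, MACS2 called the regions, with a separate list for each library; its version and settings, the aligner and the filters are not stated in the labels or file headers. As deposited, the score is 10 times −log10 q without its decimals, the fold is a ratio of signal at the summit to local background, and −log10 p and q are those of the summit. The notes name mm10, but the files hold sequence names of GRCm39. The gene and promoter tables at hand are of GRCm38.p6 and were not joined, so gene starts and sequences were not analysed here and no sequence is printed.

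Fragments and background at each summit were recovered from fold and −log10 p, with fold taken as fragments plus 1 over background plus 1 and p as a Poisson tail. A whole number of fragments with −log10 p within 0.01 (scaled up above 100) was found for 100% of regions. An NFKB2 fragment counted 0.964 in the caller's scaled signal and an ELF3 fragment 1. The floor is the lowest background. Its steps gave mean fragment lengths of 121 bp for ELF3 and 129 bp for NFKB2, and from these the depths. The recovery and the overlap functions were tested on simulated data. Cover is the percentage of a region's length inside NFKB2 regions. Shares have Clopper-Pearson and counts exact Poisson 95% intervals. The ratio takes the overlapping NFKB2 region of most fragments over the ELF3 summit, divided by the depth ratio. Regions are not replicates, so p-values were not computed. Alternatives tried were other width limits, backgrounds, chromosomes, NFKB2 limits and overlap rules.

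Regions named are the 10 widest, the 5 of highest and the 5 of lowest cover, the 5 with most NFKB2 fragments, the 5 with most NFKB2 regions, and 3 on each side of the width limit; any other was picked with its values in view. The members and these rules were chosen with earlier results of these data known. Python 3.11.15, numpy 2.4.6, pandas 2.3.3 and scipy 1.17.1 were used.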

Additional observations from a re-analysis of the deposited data

How the results depend on the processing

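Of 32 values under other settings, 20 stayed within 1.5 times of the number of regions or within the 95% interval of the share or median, and 12 did not. A width limit of 3000 bp gave 1001 regions, 77.3% overlapped and a median cover of 17.6%; a limit of 5000 bp gave 182 regions and 89.6% overlapped. NFKB2 regions of −log10 q of 5 or more overlapped 69.8%, with a median cover of 13.9%. With −log10 q of 10 or more they overlapped 45.0%, the median cover was 0% and 12.3% of regions had 50% cover or more. These limits shorten the NFKB2 list by construction. Cover of 25% or more was found in 44.8% and of 75% or more in 6.14%. Leaving out chromosome 13, the regions within 2 Mb of the histone windows, or all but the widest region of each run was chosen after the data were seen and moved neither the overlapped share nor the median cover beyond its interval. No paired analysis was possible because each antibody had 1 library. Alternatives for gene starts were not run. Weak NFKB2 signal is not listed, so depth limits every statement on absence.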
